A study of Homo sapiens with 54 samples.

Results

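The 42 genes described here encode the non-collagen part of the extracellular matrix and the enzymes that build, crosslink and cut it. They were chosen by name, with earlier results of these data known. Their counts, set beside the share of all probe sets, are thus no independent test. Each was read from the probe set whose only gene symbol was the member's. Where there were several, the probe set with the higher mean was taken, as for TIMP3 with 2. All 42 were found, among 33297 deposited probe sets of which 19460 carried 1 gene symbol and were tested. By role they fall into 11 fibre formers, 10 proteoglycans and hyaluronan genes, 5 matricellular proteins, 5 crosslinkers of the lysyl oxidase family, 4 matrix metalloproteinases, 3 tissue inhibitors of metalloproteinases and 4 others.

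The samples were 9 human cell lines, read on 54 Affymetrix Gene 1.0 ST arrays before treatment (0 h) and after 8 h and 36 h of calcitriol, the hormonal form of vitamin D, which acts through the vitamin D receptor. Each line had 2 arrays at each time. The lines were AG09309 and AG09319, HepG2 from a hepatoma, HL60 from a promyelocytic leukaemia, K562 from a chronic myeloid leukaemia in blast crisis, and 4 lymphoblastoid lines, which are B cells transformed with Epstein-Barr virus: GM07019, GM07348, GM10854 and GM12878. No label names a genetic change, and the sources used here give no dose of calcitriol. There was no untreated culture at the later times among the samples analysed here, so effects of calcitriol and of time in culture cannot be told apart. Sample titles mark the arrays of a group BR1 and BR2, an abbreviation the labels do not spell out, and no label speaks of separate cultures, so p-values measure the spread between these arrays, which may be technical.

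Connective tissue matrix is laid down chiefly by fibroblasts. Fibronectin is assembled first at the cell surface, fibrillins form microfibrils on which elastin is deposited with the help of fibulins, and small leucine-rich proteoglycans bind collagen fibrils and set their diameter. Lysyl oxidases crosslink collagen and elastin, metalloproteinases cleave matrix proteins, and their tissue inhibitors (TIMPs) block that cleavage. Matricellular proteins such as thrombospondins, tenascin and periostin bind matrix and receptors without being mainly structural. In several cell types calcitriol is known to restrain growth and fibrotic gene expression, which is the background against which matrix genes are of interest here.

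Values are on the log2 scale, where a difference of 1 is a factor of 2. Array medians over the tested probe sets ran from 5.42 to 5.69. Duplicate arrays correlated at 0.979 or more in 24 of the 27 groups. In the remaining 3 groups, 1 array stood apart: replicate 2 of AG09319 at 8 h (0.897), replicate 2 of HepG2 at 0 h (0.954) and replicate 1 of K562 at 36 h (0.970). The files hold no detection calls, so a level below the array medians may be background. Sample titles came in 2 styles. Those of AG09319, HepG2 and GM12878 end in 1 shared date, and the other titles carry no date. A difference between AG09309 and AG09319 thus cannot be told apart from title style or from what that date marks.

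The labels give AG09309 and AG09319 by name only. Of a list of 15 fibroblast markers without members of the gene group, 9 to 11 lay above 8 on every array of these lines, and the list's mean level was 9.004 to 9.54 there against 5.25 to 5.98 in the other lines. They are called the fibroblast lines below. The 0 h arrays of AG09309 also carried B cell transcripts. MS4A1, which encodes the B cell surface protein CD20, was at 8.11 in AG09309 at 0 h, 3.33 at 8 h and 2.98 at 36 h, against 3.26 to 3.67 in AG09319 and 9.47 to 10.2 in the lymphoblastoid lines. The mean of 8 measured B cell genes in AG09309 was 5.87 and 5.90 on the 0 h arrays, 4.27 and 4.46 at 8 h, and 4.07 and 4.15 at 36 h. All 8 fell by limma at 36 h in AG09309 and 0 of 8 in AG09319. The fibroblast list in AG09309 was at 9.02 and 9.09 at 0 h, below its 9.34 to 9.54 at the later times. Among other lists, 3 keratinocyte genes averaged 6.17 to 6.92 in AG09309 and 5.48 to 5.83 in AG09319. By group mean in AG09309, DSP was at 9.50 to 10.01, KRT5 at 4.12 to 4.45 and KRT14 at 5.18 to 6.14, so the average rests on DSP. The 5 smooth muscle genes averaged 6.85 to 7.14 in AG09309 and 6.40 to 6.75 in AG09319, with ACTA2 and TAGLN the highest. Every change from 0 h in AG09309, and every 0 h level of that line, stands beside these values, and their part in those results was not tested. In such bulk samples, fewer cells of a type and less RNA per cell cannot be told apart.

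**Figure D1:**
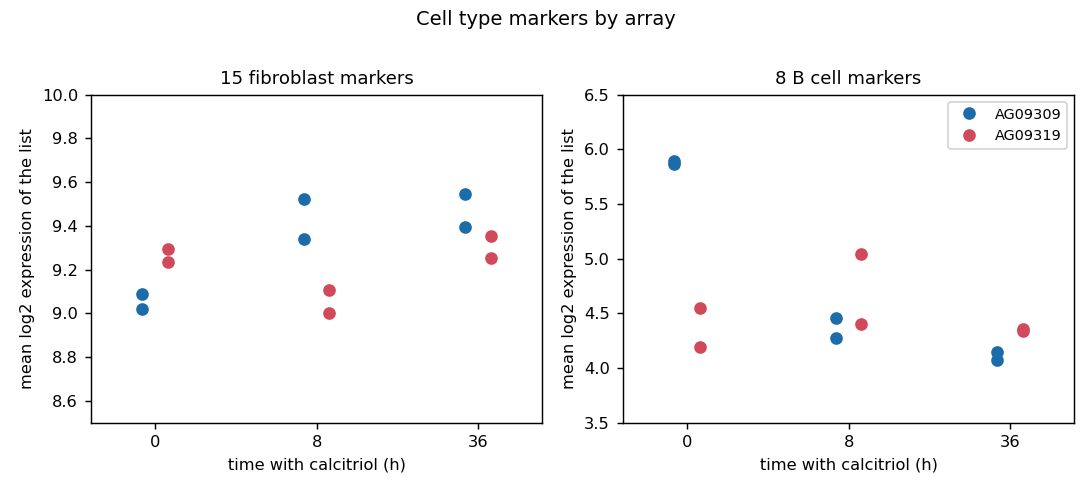
Mean log2 expression of 15 fibroblast markers (left) and 8 B cell markers (right) on single arrays of AG09309 and AG09319, by hours with calcitriol. Points are arrays, and the vertical axes do not start at 0. The B cell list was at 5.87 and 5.90 on the AG09309 arrays at 0 h and between 4.07 and 5.04 on the other 10 arrays.

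At 0 h, 41 of the 42 matrix genes were higher in the fibroblast lines than in the 7 other lines, by a fit with the line as the replicate (limma, 2 lines against 7, adjusted p under 0.05 over all tested probe sets). Of all tested probe sets, 6.69% were called higher. The median difference of the matrix genes was 4.03, and that of all probe sets was -0.17. The exception was OGN, a leucine-rich proteoglycan also called mimecan, which was at 2.62 in AG09309, 3.17 in AG09319 and 3.06 to 3.34 in the other lines (adjusted p = 0.306). Between 35 and 41 members were called when 1 of the 7 other lines was left out.

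The differences of single genes are given without a ranking, since the other lines lie far below the array medians for many of them and the size then rests on each probe set's background. THBS1, thrombospondin 1, was at 12.62 and 12.66 in AG09309 and AG09319 and at 4.27 to 8.51 in the other lines (7.26 ± 0.94 SE, adjusted p = 0.00116). LOX, the founding lysyl oxidase, was at 12.03 and 10.54 against 3.62 to 6.07 (7.17 ± 0.63 SE, adjusted p = 8.63e-05). POSTN, periostin, was at 10.24 and 8.84 against 2.34 to 2.79 (6.96 ± 0.30 SE, adjusted p = 6.37e-07). No fibroblast line overlapped another line for these genes. Among the proteases, MMP1, the interstitial collagenase, differed by 5.94 ± 0.21 SE, and among the proteoglycans DCN, decorin, differed by 5.83 ± 0.20 SE and LUM, lumican, by 5.70 ± 0.47 SE. SULF1, which removes sulfate from heparan sulfate outside the cell, differed by 6.13 ± 0.17 SE. Differences near 1 or below were those of PRELP (0.73 ± 0.17 SE, adjusted p = 0.0324), ELN, elastin (0.94 ± 0.24 SE, adjusted p = 0.0468), and LOXL1 (1.09 ± 0.14 SE).

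**Figure D2:**
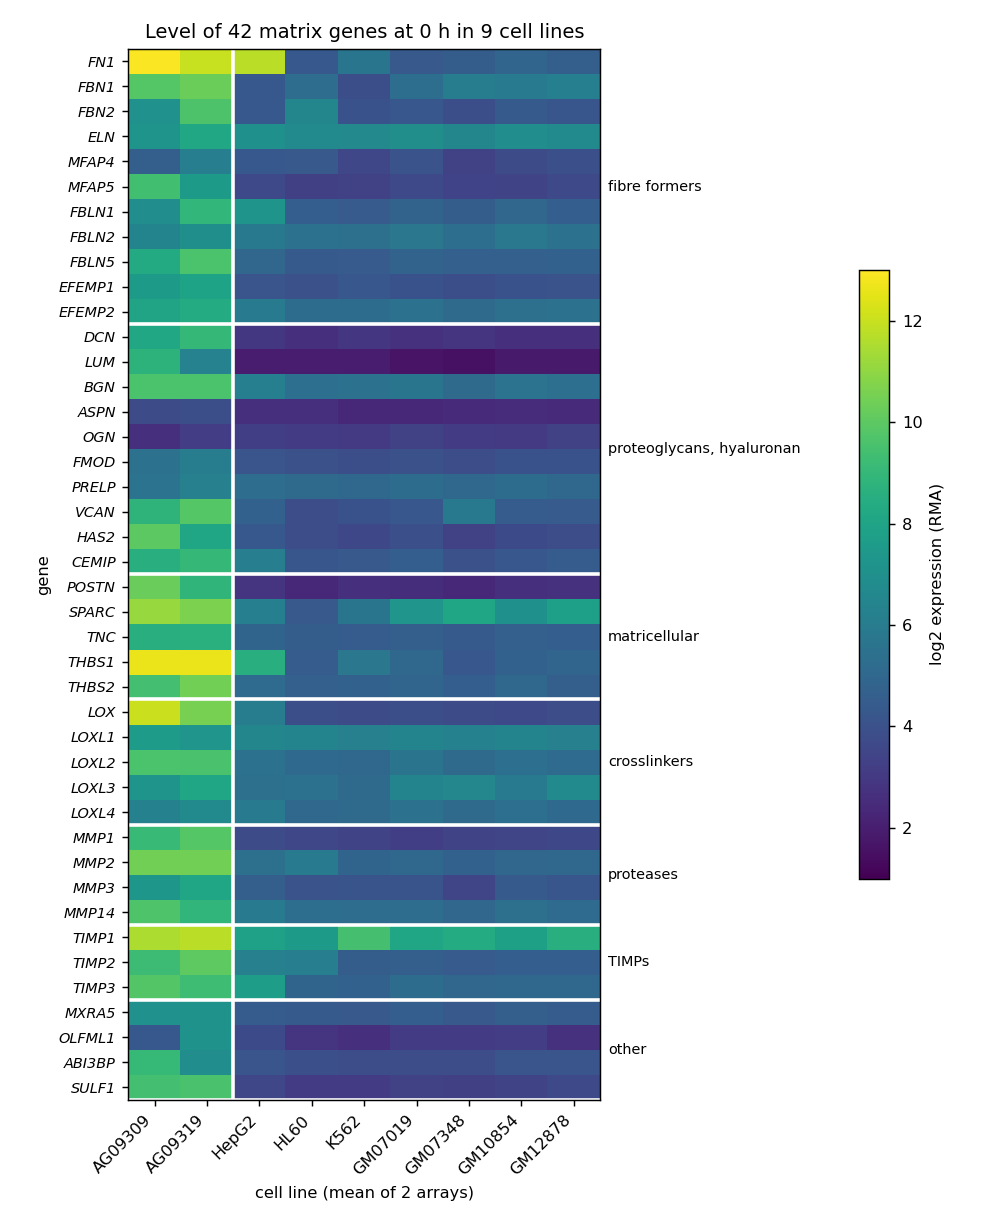
Log2 expression at 0 h of the 42 genes (rows, grouped by role) in 9 cell lines (columns, mean of 2 arrays each). Colours are to be read along a row, since probe sets of different genes do not share a scale. The 2 columns at the left are the fibroblast lines, and FN1 in HepG2, at 11.76, lies close to its levels there of 12.94 and 11.99.

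Some matrix genes were also high outside the fibroblast lines. FN1, fibronectin, was at 12.94 in AG09309, 11.99 in AG09319 and 11.76 in HepG2, and at 4.32 to 5.68 in the remaining 6 lines. HepG2 also held the highest level among the 7 other lines of FBLN1, fibulin 1 (7.23 against 4.45 to 4.94), of LOX (6.07 against 3.62 to 3.88), of TIMP3 (7.67 against 4.75 to 5.24) and of CEMIP (6.13 against 3.98 to 4.60). HL60 held the highest level among them of FBN2, fibrillin 2, at 6.51 against 3.87 to 4.39. TIMP1 was at 9.47 in K562 and at 7.56 to 8.51 in the other 6. SPARC, a collagen-binding matricellular protein, was at 7.03 to 8.08 in the lymphoblastoid lines and at 4.35 to 6.18 in HL60, K562 and HepG2.

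The 2 fibroblast lines differed from each other before calcitriol. At 0 h, 13 of the 42 genes were higher in AG09319 (background 4.13% of all tested probe sets) and 8 were lower (background 3.57%), by limma across 27 groups of line and time. Of the genes higher in AG09319, 6 were fibre formers: FBN2 by 2.59 ± 0.20 SE, FBLN1 by 2.07 ± 0.19 SE, MFAP4, a microfibril-associated glycoprotein, by 1.52 ± 0.24 SE, FBLN5, a fibulin needed for elastic fibre assembly, by 1.27 ± 0.17 SE, ELN by 1.02 ± 0.20 SE, and FBLN2 by 0.56 ± 0.18 SE (adjusted p = 0.0443). The other 7 were OLFML1, a secreted olfactomedin-like protein, by 2.88 ± 0.24 SE, then VCAN, THBS2, LOXL3, DCN, MMP1 and TIMP2 by 0.76 to 1.04.

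Of the 8 genes lower in AG09319, LUM differed by -2.43 and ABI3BP by -2.16, and HAS2, which makes hyaluronan, had a mean of 9.97 in AG09309 and 8.10 in AG09319. MFAP5, the other microfibril-associated glycoprotein, was at 9.35 and 9.37 in AG09309 and 7.64 and 7.40 in AG09319, so the 2 microfibril-associated genes lay in opposite directions. LOX, POSTN, FN1 and MMP14, the membrane-bound metalloproteinase, made up the rest, with differences of -0.77 to -1.49. These are levels of 2 arrays against 2, and the 0 h arrays of AG09309 are those with B cell transcripts.

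After 36 h with calcitriol in AG09309, 10 of the 42 genes had risen and 0 had fallen by limma at an adjusted p under 0.05, where 2.65% of all tested probe sets rose and 2.26% fell. The median change of the members was 0.23, and that of all probe sets 0.03. At an unadjusted p under 0.05, 17 members passed. Such unadjusted counts, here and below, are given without the share of all probe sets and are not read as changes of the members. CEMIP, a protein that binds hyaluronan and is needed for its breakdown by fibroblasts, was at 8.48 and 8.57 on the 0 h arrays, 8.75 and 9.27 at 8 h, and 10.10 and 10.21 at 36 h (1.63 ± 0.20 SE, adjusted p = 3.47e-07). MXRA5, a secreted matrix remodelling-associated protein, was at 7.06 and 7.06 at 0 h, 7.28 and 7.24 at 8 h, and 8.52 and 8.61 at 36 h (1.504 ± 0.27 SE, adjusted p = 0.000215). For both genes each 36 h array lay above every earlier array of the line. OLFML1 went from 4.61 and 3.99 at 0 h to 5.88 and 5.45 at 36 h (1.37 ± 0.24 SE, adjusted p = 0.000147), from levels below the array medians, so its change is no exact fold.

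Of the fibre formers, 5 of 11 rose in AG09309. FBLN2, fibulin 2, was at 6.35 and 6.52 at 0 h, 6.73 and 7.02 at 8 h, and 7.33 and 7.70 at 36 h (1.08 ± 0.18 SE, adjusted p = 6.52e-05). FBN2 was at 7.15 and 6.96 at 0 h, 7.47 and 7.75 at 8 h, and 8.04 and 8.05 at 36 h (0.99 ± 0.20 SE, adjusted p = 0.00176). In both genes the 3 times did not overlap. FBLN5 rose by 0.78 ± 0.17 SE and EFEMP2, also called fibulin 4, by 0.68 ± 0.17 SE. MFAP4 rose by 0.86 ± 0.24 SE (adjusted p = 0.0301), from 4.75 and 4.51 at 0 h to 5.48 and 5.51 at 36 h. At 8 h MFAP4 was at 4.69 and 5.55, so 1 of these arrays lay above both 36 h arrays. Its levels were near or below the array medians, so its change is no exact fold either. EFEMP1, fibulin 3, did not pass at 0.76 ± 0.23 SE (adjusted p = 0.052). ELN and FN1 changed by -0.33 and -0.18 and did not pass either.

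Among the other roles in AG09309, 1 of 5 crosslinkers rose, LOXL4, from 6.37 and 6.22 to 7.11 and 7.49 (1.005 ± 0.20 SE, adjusted p = 0.0012). THBS2, thrombospondin 2, rose as 1 of 5 matricellular genes, from 9.43 and 9.38 to 9.997 and 10.15 (0.67 ± 0.20 SE, adjusted p = 0.0426). None of the 4 metalloproteinases passed (0 of 4), with changes from -0.49 for MMP3, stromelysin 1, to 0.36 for MMP1, and the 3 TIMPs changed by -0.06 to 0.47 with 0 of 3 passing. With 1 array of the line left out, 5 to 7 members passed: 5 without replicate 2 at 0 h and 6 without either replicate at 36 h. FBLN2, MXRA5, OLFML1 and CEMIP passed in each of the 4 such fits.

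At 8 h in AG09309 0 of 42 genes passed, against 1.53% of all tested probe sets, and 6 had an unadjusted p under 0.05. The smallest p-values belonged to FBN2 (0.55 ± 0.20 SE), EFEMP2 (0.41 ± 0.17 SE) and FBLN2 (0.44 ± 0.18 SE), with adjusted p of 0.323 to 0.452. FBN2 passed at 8 h once the 3 arrays that stood apart were dropped, none of which is of AG09309. Comparing 36 h with 8 h uses none of the 0 h arrays that carried B cell transcripts. There 4 of 42 genes rose, against 0.293% of all probe sets: OLFML1 by 1.39 ± 0.24 SE, MXRA5 by 1.31 ± 0.27 SE, CEMIP by 1.15 ± 0.20 SE and DCN by 0.84 ± 0.19 SE (adjusted p = 0.0281). With 1 array left out, 0 to 2 of the 42 passed, 0 without replicate 1 at 8 h or at 36 h.

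In AG09319 at 36 h, 7 of the 42 genes had risen (background 1.78%) and 2 had fallen (background 2.71%), with a median change of 0.22 in the members and -0.0028 in all probe sets. MFAP4 was at 5.81 and 6.48 at 0 h, 5.93 and 5.61 at 8 h, and 7.5 and 7.73 at 36 h (1.47 ± 0.24 SE, adjusted p = 8.17e-05). EFEMP1 was at 7.88 and 8.03 at 0 h, 7.81 and 6.77 at 8 h, and 8.97 and 9.11 at 36 h (1.09 ± 0.23 SE, adjusted p = 0.00219). CEMIP was at 8.91 and 9.12 at 0 h, 9.72 and 8.92 at 8 h, and 10.07 and 10.07 at 36 h (1.05 ± 0.20 SE, adjusted p = 0.000555). Every 36 h array of these 3 genes lay above all 4 earlier arrays. FBLN2 rose by 0.84 ± 0.18 SE and FBN2 by 0.78 ± 0.20 SE (adjusted p = 0.016).

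Of the proteoglycan and hyaluronan genes in AG09319, 3 of 10 rose: CEMIP, DCN and FMOD. DCN was at 8.96 and 9.02 at 0 h and at 9.81 on both arrays at 36 h (0.82 ± 0.19 SE, adjusted p = 0.00391). FMOD, fibromodulin, was at 6.15 and 6.03 at 0 h and 6.96 and 7.01 at 36 h (0.90 ± 0.19 SE, adjusted p = 0.00204). The genes that fell were ELN, from 8.12 and 8.29 to 7.63 and 7.10 (-0.84 ± 0.20 SE, adjusted p = 0.00494), and TNC, tenascin C, from 8.67 and 8.60 to 7.76 and 8.07 (-0.72 ± 0.20 SE, adjusted p = 0.0302). ELN did not pass after quantile normalization (adjusted p = 0.0981). With 1 array left out, the change of ELN ran from -1.11 to -0.57 and that of TNC from -0.87 to -0.56. The 4 metalloproteinases changed by -0.75 to 0.02 and the 3 TIMPs by -0.65 to -0.04, with none passing (0 of 4 and 0 of 3). Leaving out 1 array of the line gave 5 to 8 called members, the 5 without replicate 1 at 0 h.

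**Figure D3:**
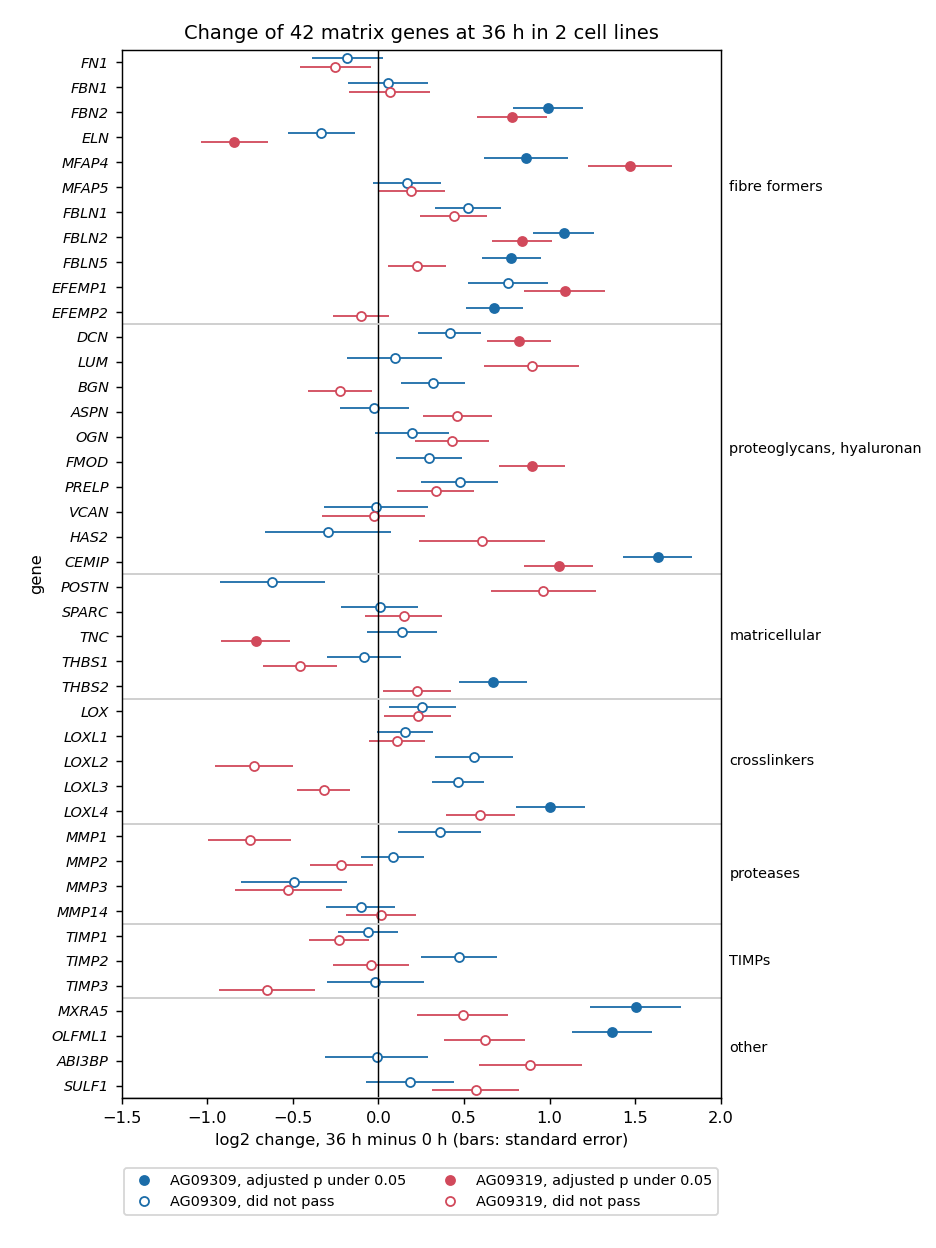
Log2 change from 0 h to 36 h of the 42 genes in AG09309 and AG09319, with standard errors as bars. Filled points passed limma's test at an adjusted p under 0.05. FBN2, FBLN2, MFAP4 and CEMIP are filled on the right for both lines, and ELN and TNC are filled on the left for AG09319.

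All these tests share 1 estimate of the spread, to which the array of AG09319 at 8 h contributes. Without the 3 arrays that stood apart, 14 of the 42 genes passed at 36 h in AG09319, 10 higher and 4 lower, against 7.44% of all probe sets in either direction, which was 4.49% in the full fit. The genes added were POSTN (0.96), LUM (0.90) and ABI3BP (0.89) upward and MMP1 (-0.75) and LOXL2 (-0.73) downward. None of these used an 8 h array in its change. In AG09309 the same fit also called 14 (8.52% of all probe sets, 4.91% in the full fit), adding EFEMP1 (0.76), LOXL3 (0.47) and DCN (0.42) upward and POSTN (-0.62) downward. With only the 12 arrays of the fibroblast lines in the fit, 2 members (CEMIP and FBLN2) passed in AG09309, where 1.12% of all probe sets did, and 1 (MFAP4) in AG09319, where 1.19% did.

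At 8 h in AG09319, FBN2 (-1.06 ± 0.20 SE, adjusted p = 0.0112) and MXRA5 (-1.27 ± 0.27 SE, adjusted p = 0.021) passed as lower, 2 of 42 against 0.267% of all probe sets. FBN2 was at 9.65 and 9.64 at 0 h and at 9.07 and 8.11 at 8 h, the last value being the array that stood apart. Neither passed with that array alone left out (adjusted p = 0.9998 for FBN2 and 0.6895 for MXRA5), nor with all 3 arrays that stood apart left out (0.667 and 0.430). With only that array kept at 8 h, 26 of 42 genes passed, and 53.0% of all probe sets. Between 8 h and 36 h in AG09319, 22 members rose (background 10.8%) and ELN fell by 1.24 (background 7.26%). Without the arrays that stood apart the count was 17, with 13 higher and 4 lower, and without replicate 2 at 8 h alone it was 14. The share of all probe sets called in either direction went from 18.0% in the full fit to 6.18% and 4.75%.

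**Figure D4:**
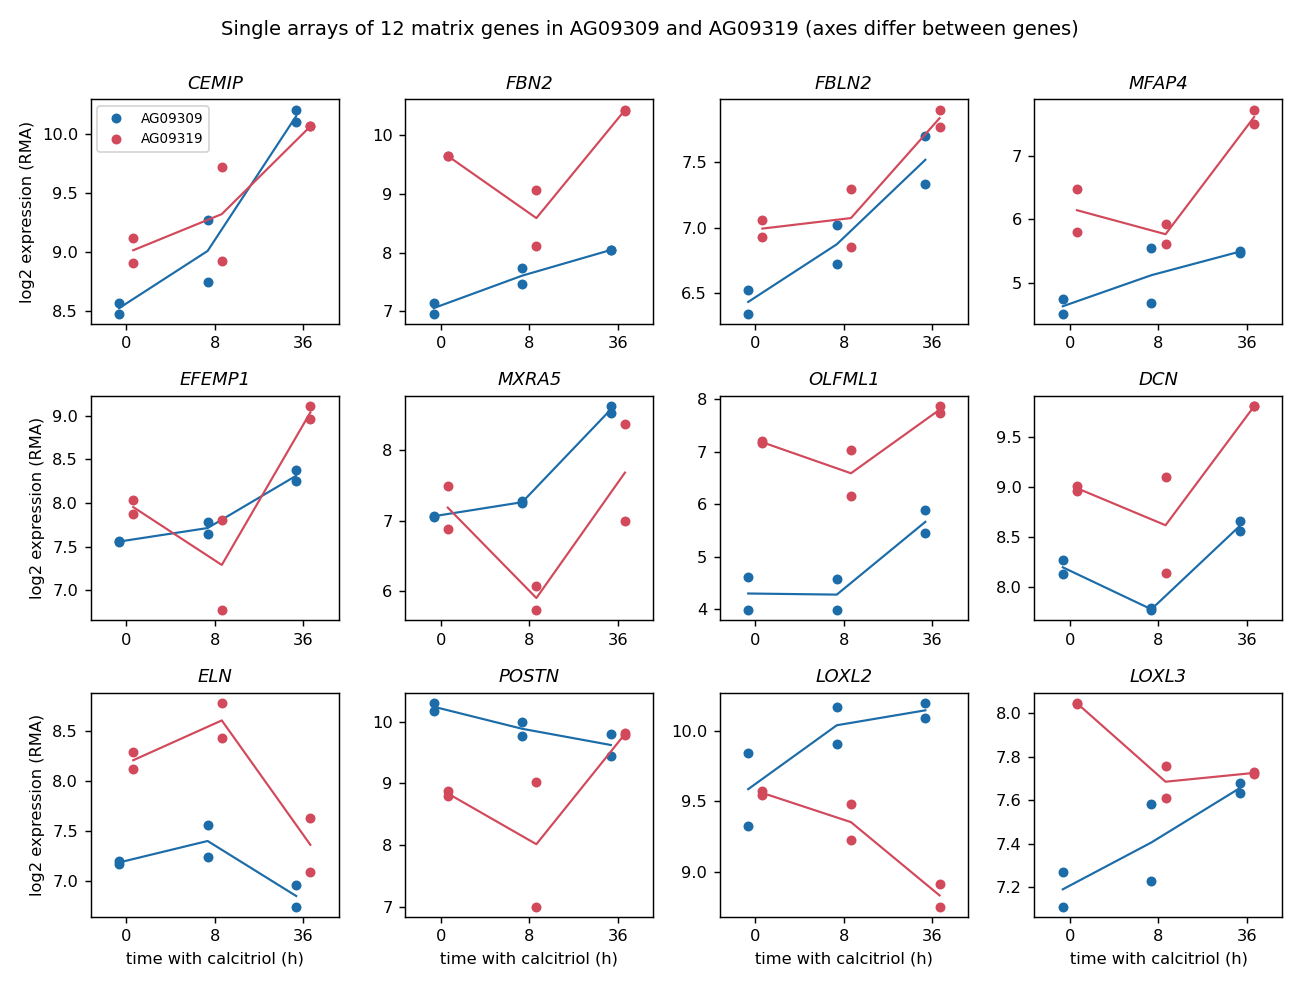
Log2 expression of 12 matrix genes on single arrays of AG09309 and AG09319 at 0, 8 and 36 h with calcitriol, with lines through the means of 2 arrays. Axes differ between panels and do not start at 0. At 8 h the 2 arrays of AG09319 lie far apart for most genes, as for POSTN at 9.03 and 7.01, and at 36 h the POSTN values of both lines lie between 9.44 and 9.82.

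Both lines called FBN2, FBLN2, MFAP4 and CEMIP as higher at 36 h. These 4 are 40.0% of the genes called in AG09309 and 44.4% of those called in AG09319, and 29 of the 42 members had a change of the same sign in both lines. The same shares over all probe sets are not given here, so these counts are not read as particular to the members. In the mean of the changes of the 2 lines, 13 genes rose (background 4.16%) and 1 fell (background 3.71%). CEMIP rose by 1.34 ± 0.14 SE (adjusted p = 1.72e-08), MFAP4 by 1.17 ± 0.17 SE, MXRA5 by 0.998 ± 0.19 SE, OLFML1 by 0.99 ± 0.17 SE, FBLN2 by 0.96 ± 0.13 SE, EFEMP1 by 0.92 ± 0.17 SE and FBN2 by 0.88 ± 0.14 SE. LOXL4, DCN, FMOD, FBLN5, FBLN1 and THBS2 rose by 0.45 to 0.80, and ELN fell by 0.59. MXRA5 did not pass in AG09319 alone, where it was at 7.49 and 6.88 at 0 h and 6.99 and 8.36 at 36 h. With 1 array left out, the MXRA5 change in the mean ran from 0.65 to 1.34. The fall of ELN did not pass after quantile normalization (adjusted p = 0.0504), nor the rise of THBS2 with a replicate block (adjusted p = 0.073). With only the 12 fibroblast arrays in the fit, 7 members rose and 0 fell, where 2.52% of all probe sets passed. By role, 6 of 11 fibre formers, 3 of 10 proteoglycan and hyaluronan genes, 1 of 5 matricellular genes, 1 of 5 crosslinkers and 2 of 4 others rose, and 0 of 4 metalloproteinases and 0 of 3 TIMPs passed. The error of this mean is that between arrays of these 2 lines, not between lines of a kind. At 8 h the mean gave 0 of 42 (background 1.31%), with 9 at an unadjusted p under 0.05. The smallest p-values were those of DCN (-0.40 ± 0.13 SE), MXRA5 (-0.54 ± 0.19 SE) and CEMIP (0.40 ± 0.14 SE), which did not pass.

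Promoters of 6 members are shown here, as RefSeq windows of GRCh38.p14 from 250 bases before to 50 after a gene's start. The first 3 belong to genes that rose in both lines at 36 h, which is why they are set side by side. FBLN5 and THBS2 passed in AG09309 and not in AG09319, and POSTN passed in neither line but differed between them. Capitals mark TATAAA on the gene's own strand, and in POSTN also an AP-1 match. They are CEMIP at chr15:80779120-80779419 (+ strand), FBN2 at chr5:128538196-128538495 (- strand), FBLN2 at chr3:13548875-13549174 (+ strand), FBLN5 at chr14:91946983-91947282 (- strand), THBS2 at chr6:169253797-169254096 (- strand) and POSTN at chr13:37598719-37599018 (- strand).
CEMIP: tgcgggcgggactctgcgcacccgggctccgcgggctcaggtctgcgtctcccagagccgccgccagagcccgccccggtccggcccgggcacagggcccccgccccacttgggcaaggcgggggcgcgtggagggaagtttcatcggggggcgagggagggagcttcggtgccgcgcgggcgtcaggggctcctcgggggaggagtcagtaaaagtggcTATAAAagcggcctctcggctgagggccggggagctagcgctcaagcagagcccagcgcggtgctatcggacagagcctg
FBN2: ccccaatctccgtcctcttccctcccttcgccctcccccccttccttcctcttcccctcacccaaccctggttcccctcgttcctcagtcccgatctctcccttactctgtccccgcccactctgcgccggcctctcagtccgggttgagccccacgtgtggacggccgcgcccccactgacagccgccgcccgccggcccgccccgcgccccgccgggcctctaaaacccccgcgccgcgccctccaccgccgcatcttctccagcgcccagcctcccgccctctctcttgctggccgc
FBLN2: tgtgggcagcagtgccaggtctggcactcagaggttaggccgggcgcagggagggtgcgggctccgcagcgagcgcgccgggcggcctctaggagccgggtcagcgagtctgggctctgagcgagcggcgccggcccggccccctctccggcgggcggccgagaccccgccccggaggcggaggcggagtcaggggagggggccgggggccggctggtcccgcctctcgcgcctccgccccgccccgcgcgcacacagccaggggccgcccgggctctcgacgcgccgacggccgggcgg
FBLN5: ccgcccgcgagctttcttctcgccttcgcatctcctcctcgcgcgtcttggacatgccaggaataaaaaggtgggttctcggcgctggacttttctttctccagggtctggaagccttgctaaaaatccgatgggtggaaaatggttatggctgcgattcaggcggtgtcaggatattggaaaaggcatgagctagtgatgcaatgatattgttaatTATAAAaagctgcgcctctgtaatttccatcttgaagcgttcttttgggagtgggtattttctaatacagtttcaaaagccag
THBS2: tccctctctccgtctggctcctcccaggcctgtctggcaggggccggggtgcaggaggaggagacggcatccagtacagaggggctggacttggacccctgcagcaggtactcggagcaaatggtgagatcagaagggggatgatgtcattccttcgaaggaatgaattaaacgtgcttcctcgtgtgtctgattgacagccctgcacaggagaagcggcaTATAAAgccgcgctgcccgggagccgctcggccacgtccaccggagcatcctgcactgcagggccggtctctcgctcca
POSTN: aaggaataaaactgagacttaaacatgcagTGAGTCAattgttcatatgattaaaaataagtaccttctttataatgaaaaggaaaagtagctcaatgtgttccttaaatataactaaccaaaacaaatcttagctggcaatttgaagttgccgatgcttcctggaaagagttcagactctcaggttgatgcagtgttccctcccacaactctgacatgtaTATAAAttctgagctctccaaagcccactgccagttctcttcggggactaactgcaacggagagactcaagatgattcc

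Windows were found for 28 of the 42 members, with several start sites for some (34 windows). TATAAA, searched on the gene's strand, was in 4 of the 34 windows (11.8%), those of CEMIP, THBS2 and POSTN and 1 of the 2 windows of FBLN5, the one shown. It was in 7.33% of 35116 windows of all genes. Counted from the start site, its first base was at -30 in CEMIP, -33 in FBLN5, and -29 in THBS2 and POSTN. The AP-1 motif, TGACTCA or TGAGTCA (both strands), was in 1 of the 34 windows (2.94%), that of POSTN, with its first base at -220, and in 4.95% of all windows. The vitamin D receptor is known to bind a direct repeat with a gap of 3 bases. It was searched on both strands as any pair of AGGTCA or GGTTCA or GGGTCA or AGTTCA with NNN between them. It was in 0 member windows and in 0.074% of all windows. These letters are matches in short windows and say nothing of binding.

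Whether the 2 lines changed differently was tested directly. At 36 h, POSTN differed by 1.58 ± 0.43 SE (AG09319 minus AG09309, adjusted p = 0.0389), 1 of 42 against 1.23% of all probe sets. It went from 10.31 and 10.18 at 0 h to 9.81 and 9.44 at 36 h in AG09309, and from 8.87 and 8.80 to 9.82 and 9.78 in AG09319. LOXL2 and LOXL3, both crosslinkers, differed the other way, 2 of 42 against 1.11%. LOXL2 went from 9.85 and 9.33 to 10.09 and 10.20 in AG09309 and from 9.58 and 9.54 to 8.91 and 8.75 in AG09319 (-1.29 ± 0.32 SE, adjusted p = 0.0173). LOXL3 went from 7.27 and 7.11 to 7.63 and 7.68 in AG09309 and from 8.05 and 8.04 to 7.73 and 7.72 in AG09319 (-0.79 ± 0.22 SE, adjusted p = 0.0417). In the fit that dropped the 3 arrays standing apart, 7 members differed (4.52% of all probe sets, 2.34% in the full fit), the others being MMP1 (-1.11), TNC (-0.86), EFEMP2 (-0.78) and ABI3BP (0.90). Leaving out 1 of the 8 arrays of the comparison gave 0 to 2, and each of the 3 calls was lost in at least 1 such fit. At 8 h, FBN2 (-1.61 ± 0.29 SE, adjusted p = 0.000583) and MXRA5 (-1.47 ± 0.38 SE, adjusted p = 0.0323) differed, 2 of 42 against 0.421% of all probe sets. With those 3 arrays dropped FBN2 still passed (adjusted p = 0.00879) and MXRA5 did not (adjusted p = 0.141).

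Pairs of members lie next to each other in the RefSeq annotation: FMOD and PRELP on chromosome 1, MMP1 and MMP3 on chromosome 11, LUM and DCN on chromosome 12, and OGN and ASPN on chromosome 9 with OMD between them. In AG09319 at 36 h FMOD changed by 0.90 and PRELP by 0.34, LUM by 0.90 and DCN by 0.82, and MMP1 by -0.75 and MMP3 by -0.53, of which FMOD and DCN passed. In AG09309 the pairs changed by 0.30 and 0.47, by 0.10 and 0.42, and by 0.36 and -0.49 in the same order, with none passing, so MMP1 and MMP3 had opposite signs there. OMD, osteomodulin, is no member, and rose by 1.41 ± 0.21 SE in AG09319 at 36 h (adjusted p = 2.23e-05), where ASPN and OGN changed by 0.46 and 0.43.

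Of 61 measured further matrix genes (laminins, other proteoglycans and remodelling enzymes), 4 rose and 0 fell in AG09309 at 36 h. They were LAMA2 (1.24 ± 0.23 SE) and LAMA4 (0.84 ± 0.19 SE), which encode laminin chains, HMCN1, hemicentin 1 (1.21 ± 0.20 SE), and HSPG2, perlecan (0.61 ± 0.15 SE). In AG09319, 4 rose and 1 fell: OMD, HMCN1 (1.09 ± 0.20 SE), ECM2 (0.71 ± 0.17 SE) and SULF2 (0.66 ± 0.16 SE), and MMP16, another membrane-bound metalloproteinase (-0.999 ± 0.20 SE). HMCN1 passed in both lines. In the same comparisons 2.65% of all probe sets rose in AG09309, and 1.78% rose and 2.71% fell in AG09319. With 1 array left out these list counts went from 4 to 2 in AG09309 (without replicate 1 at 0 h) and from 5 to 2 in AG09319 (without replicate 1 at 36 h).

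Of 22 measured matrix receptors, 2 rose in AG09309, the integrin subunits ITGB8 (0.83 ± 0.22 SE) and ITGA8 (0.80 ± 0.23 SE). In AG09319 ITGB8 rose (1.05 ± 0.22 SE) and 5 fell: ITGA6 (-1.37), ITGA2 (-1.27), HMMR (-1.16), a hyaluronan receptor, ITGB3 (-0.88) and ITGA3 (-0.81). Both calls in AG09309 were lost whichever array of the line was left out (0 of 22 in all 4 fits), where 2.65% of all probe sets rose in the full fit. The 6 calls in AG09319, beside 1.78% of all probe sets higher and 2.71% lower, became 1 without replicate 1 at 0 h and 2 without either replicate at 36 h. The change of ITGA3 differed between the lines by -1.03 ± 0.24 SE (adjusted p = 0.00966). Of 19 genes of transforming growth factor beta signalling, which is known to drive matrix synthesis, 3 rose in AG09309: TGFB2, a ligand (1.96 ± 0.24 SE, adjusted p = 1.97e-07), SMAD3, a signal transducer (0.94 ± 0.15 SE), and LTBP3, which binds the latent ligand (0.70 ± 0.15 SE), where 2.65% of all probe sets rose. Without replicate 1 at 0 h or replicate 2 at 36 h 2 of the 3 passed. None passed in AG09319 (0 of 19, beside 4.49% of all probe sets in either direction). TGFB2 and SMAD3 differed between the lines by -1.35 ± 0.33 SE and -0.90 ± 0.21 SE (AG09319 minus AG09309, adjusted p = 0.0157 and 0.00897).

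Outside the fibroblast lines few members changed. In HL60 at 36 h FN1 rose, the only one of 42 members to pass there (background 0.714% higher). It was at 4.38 and 4.25 at 0 h, 4.04 and 4.18 at 8 h, and 6.72 and 6.58 at 36 h (2.33 ± 0.21 SE, adjusted p = 5.43e-10). The 36 h arrays lay above the array medians and all earlier arrays of the line below them. FN1 passed in each fit that left out 1 array of HL60. At 8 h in HL60 0 of 42 passed (background 0.236%), the smallest p-values being those of BGN (-0.31), FMOD (-0.28) and ASPN (0.27).

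**Figure D5:**
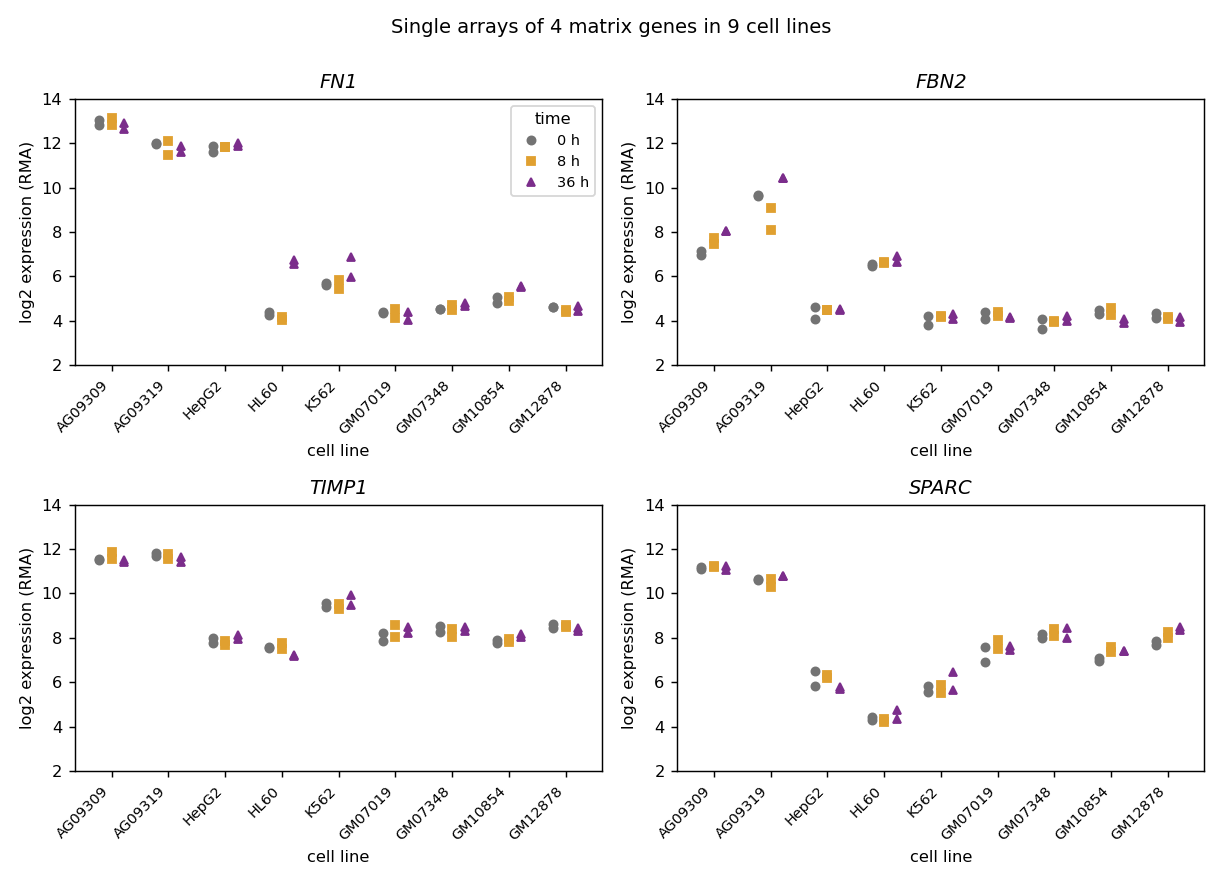
Log2 expression of FN1, FBN2, TIMP1 and SPARC on single arrays of the 9 lines at 0, 8 and 36 h with calcitriol. Axes run from 2 to 14. FN1 in HL60 lies at 6.58 and 6.72 at 36 h and between 4.04 and 4.38 before, while in HepG2 it lies between 11.62 and 12.03 at all times.

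In HepG2, whose 0 h group held an array that stood apart, 0 of 42 genes passed at 36 h (background 1.84%) and at 8 h (background 0%). LOXL4 (0.53 ± 0.20 SE), THBS1 (-0.49 ± 0.22 SE) and BGN (-0.40 ± 0.19 SE) had the smallest p-values at 36 h, with adjusted p of 0.239 to 0.412. SPARC passed as lower (-0.76 ± 0.22 SE, adjusted p = 0.0476) once arrays that stood apart were dropped. In K562, 0 of 42 passed at 36 h (background 0.0411%) and at 8 h (background 0%). FN1 in K562 was at 5.72 and 5.63 at 0 h and at 6.88 and 5.98 at 36 h (0.75 ± 0.21 SE, adjusted p = 0.191), the higher value being the array that stood apart, and the median change of all probe sets there was 0.13.

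In single lymphoblastoid lines 0 of 42 members passed at 36 h in GM07019 (background 0.0514%), GM07348 (0.118%), GM10854 (0.0668%) and GM12878 (0.0514%), and 0 at 8 h in each (background 0% in GM07019, GM10854 and GM12878 and 0.00514% in GM07348). At an unadjusted p under 0.05, 2 to 3 members passed per line at 36 h. The smallest p-values at 36 h were those of THBS1 (-0.71) in GM07019, CEMIP (0.57) in GM07348, FN1 (0.60) in GM10854 and LOXL3 (-0.49) in GM12878, with adjusted p of 0.509 to 0.956. With the line as the replicate over the 4 lines, LOXL3 fell by 0.34 at 36 h (limma, SE 0.08, adjusted p = 0.0489), 1 of 42 against 0.0719% of all probe sets lower. Its adjusted p reached 0.291 with 1 line left out and was 0.0506 after quantile normalization. SPARC changed by 0.36 ± 0.09 SE and did not pass (adjusted p = 0.0656). At 8 h over the 4 lines 0 of 42 passed (background 0.0257%).

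Over all 9 lines, 0 of 42 members passed at 36 h (background 0.468%) and at 8 h (background 0%), by limma with the line as the replicate. At an unadjusted p under 0.05, 6 passed at 36 h and 0 at 8 h. At 36 h the smallest p-values were those of LOXL4 (0.30 ± 0.09 SE), THBS1 (-0.25 ± 0.08 SE) and CEMIP (0.40 ± 0.13 SE), with adjusted p of 0.147 to 0.178.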

How the data were processed

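The deposited values are log2 expression per probe set, which the authors produced by RMA in Affymetrix Expression Console 1.0, per the submitters' processing notes. Per the labels' protocols, 100 ng of total RNA was made into biotinylated cDNA. The sources used here do not say if RMA was run once on the whole set. Groups came from the cell line and time labels, and for GM10854, whose titles disagree with its cell line label, the latter decided. Of 33297 probe sets, 1754 carried several symbols and 12083 were not in the probe table used, and neither were tested.

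Single lines, their mean and their difference were tested in 1 limma 3.58.1 fit (R 4.3.3) of 27 groups to 54 arrays (27 residual degrees of freedom), two-sided, with Benjamini-Hochberg adjustment over 19460 probe sets and a threshold of 0.05. Statements over lines averaged the 2 arrays of a group and took the line as the replicate. No filter on low values was applied, and precision is limited by having 2 arrays per group. Scripts were tested on simulated data. Tables and plots used Python 3.11.15 with pandas 2.3.3, numpy 2.4.6 and matplotlib 3.10.9. Promoters came from RefSeq windows. The members, the gene lists, the tests and the rule for named genes were chosen with earlier results of these data known. Members past the threshold in a fibroblast line were given by array (at most 15, by size of change), and where nothing passed, the 3 with the smallest p, cut to the first per lymphoblastoid line. Genes named from fits without arrays that stood apart, the neighbours and the chosen promoters were picked after values were seen.

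The 2 arrays of a group carry replicate numbers. Between times of a line, the differences of replicate 1 and 2 correlated at -0.414 to 0.585 (over 0.1 in 14 of 27 comparisons). All 3 time pairs were over 0.1 in K562, GM07348 and GM12878 and not in the other 6 lines, the fibroblast lines included. No label ties arrays of the same number together, and no pairing was assumed. Alternatives were quantile normalization, arrays centred on their medians, leaving out probe sets whose highest group mean was under 6, leaving out the 3 arrays that stood apart, array weights, a replicate block, only the 12 fibroblast arrays, the mean of all probe sets of a gene, and leaving out each array or line in turn.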

Additional observations from a re-analysis of the deposited data

Results flagged for a closer look

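Outside the fibroblast lines, 7 of 42 members had 1 of 7 lines far from the rest at 0 h by Dixon's criterion. The criterion's rate of about 1 in 20 is for values of 1 kind, while 4 of these 7 lines are lymphoblastoid. The share of all probe sets flagged is not given here, so the count is not read as particular to the members. HepG2 stood high for FN1 (11.755, the other 6 lines at 4.316 to 5.676), FBLN1 (7.228, others 4.453 to 4.938), LOX (6.068, others 3.625 to 3.875), THBS1 (8.508, others 4.27 to 5.748), TIMP3 (7.67, others 4.746 to 5.238) and CEMIP (6.127, others 3.976 to 4.595). HL60 stood high for FBN2 (6.513, others 3.871 to 4.39).

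The changes of the fibroblast lines differed, by limma's test of the difference, for 5 genes. At 8 h these were FBN2 (-1.609, AG09319 minus AG09309) and MXRA5 (-1.472), where 1 array of AG09319 stood apart. At 36 h they were POSTN (1.582), LOXL2 (-1.286) and LOXL3 (-0.787). B cell transcripts on the 0 h arrays of AG09309 enter each of these differences, and their part was not tested.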

How the results depend on the processing

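Counts of called members and of the 3 other gene lists were recomputed in 432 pairings of a result with a setting. Of these, 351 gave a count within 1.5 times and on the same side of 0. Counts of 0 that stayed at 0 are among the 351, so it is no measure of how stable the fibroblast counts are. Of 1152 such pairings for single called members, 232 lost the call and 0 changed direction. Where a count moved, the cause was not tested beyond what the setting itself leaves out. Quantile normalization called 1 member as higher in HepG2 at 36 h, and 1 at 8 h in the mean of the fibroblast lines. It called 0 at 36 h over the lymphoblastoid lines, and 8 further matrix genes in AG09319 at 36 h. With arrays centred on their medians, 4 members differed between the fibroblast lines at 8 h and 0 passed over the lymphoblastoid lines. With dim probe sets left out, these counts were 4 and 2. Without the 3 arrays that stood apart, the counts at 8 h were 1 in AG09309 and 0 in AG09319. At 36 h they were 14 in AG09319 and 1 in HepG2. That 1 was SPARC, as lower, while quantile normalization called its 1 as higher. The mean gave 1 at 8 h, and the difference 1 at 8 h and 7 at 36 h. In AG09319, 11 further matrix genes passed at 36 h. Array weights gave 1 in AG09309 and 0 in AG09319 at 8 h, 5 in AG09319 between 8 h and 36 h, 2 in GM10854 at 36 h, 1 and 6 for the difference at 8 h and 36 h, 9 further matrix genes in each fibroblast line and 4 receptors in AG09309. The fit to only the 12 fibroblast arrays, with fewer arrays behind the spread, called 2 members in AG09309 at 36 h and 0 between 8 h and 36 h. In AG09319 it called 0 at 8 h, 1 at 36 h and 10 between 8 h and 36 h, in the mean 7 at 36 h, and 0 differed at 8 h or at 36 h. Of further matrix genes it called 0 in AG09309 and 1 in AG09319, and of receptors 0 in both. It was not run for other lines, and weights and the block were not run for fits over lines. The array weights were equal for the 2 arrays of each group, 0.14 for both of AG09319 at 8 h. They thus did not single out the array that stood apart there.

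No label says that replicate numbers pair the arrays, and their deviations went together at all times in K562, GM07348 and GM12878 but not in the other 6 lines. A replicate block gave 9 called members in AG09309 and 10 in AG09319 at 36 h, 13 in their mean and 2 for their difference, and left 0 at 8 h and at 36 h in each of K562, GM07348 and GM12878.

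With 1 array left out at a time, calls at 36 h numbered 5 to 7 in AG09309, 5 to 8 in AG09319, 12 to 13 in their mean, 0 to 2 for their difference and 0 to 1 in K562 (1 without replicate 2 at 36 h). Between 8 h and 36 h they numbered 0 to 2 in AG09309 and 14 to 26 in AG09319 (14 and 15 without replicate 2 at 8 h or at 36 h). At 8 h they numbered 0 to 26 in AG09319, 0 to 17 in the mean and 1 to 23 for the difference, with the highest value each time where replicate 1 of AG09319 at 8 h was left out. At 36 h the further matrix genes numbered 2 to 3 in AG09309 (2 without replicate 1 at 0 h) and 2 to 6 in AG09319 (2 without replicate 1 at 36 h), and the receptors 0 in AG09309 in all 4 such fits and 1 to 4 in AG09319 (1 without replicate 1 at 0 h). Levels at 0 h gave 16 to 17 members between the fibroblast lines and, with 1 line left out, 35 to 41 against the others. Over the lymphoblastoid lines 0 to 2 passed, 2 without GM07348 and 0 without any other line. Levels near background on the array limit what changes in low genes can show.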
